A study of Mus musculus with 8 samples.

Results

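Gata6 and 9 genes typical of large resident peritoneal macrophages (Ltbp1, Tgfb2, Aspa, Selp, Garnl3, Icam2, Itga6, Prg4 and Rarb) were followed across 8 one-colour Agilent expression arrays of mouse macrophages. The 10 genes were taken as a fixed list of names, matched to the array through the RefSeq transcript of each probe, and they are 10 of 14490 named genes with a usable probe. The list was drawn up with their values on these arrays known, by genotype and by slide, and the genes were selected on those measured differences, so the values are given as a description and no p-value is attached to them. The tested mice were EP2KO animals (4 arrays, EP2KO 1 to 4), which lack EP2, a prostaglandin E2 receptor encoded by Ptger2, and the comparison mice were wild type (4 arrays, WT 1 to 4). All were male and all had been treated with LPS, the bacterial endotoxin, so no untreated macrophages enter any comparison. The series title sets the receptor against macrophage activity in cardiac repair. The labels call the cells macrophages without naming the body site, the LPS dose, the age of the mice, how Ptger2 was disrupted, or whether the replicates came from separate mice. Any p-value below therefore measures only the spread between these samples, which may be technical.

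Large peritoneal macrophages are the main resident phagocytes of the resting mouse peritoneal cavity. Their identity depends on GATA6, a zinc-finger transcription factor that is switched on by retinoic acid, and loss of Gata6 in mouse macrophages removes much of the gene programme that sets them apart from other tissue macrophages. GATA6 is not restricted to macrophages and is also made in other cells of endodermal and mesodermal origin. After an inflammatory stimulus such as LPS, large peritoneal macrophages become scarce in lavage fluid while monocyte-derived small peritoneal macrophages appear. In RNA of a whole cell preparation, fewer cells of a type and less RNA per cell cannot be told apart.

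All values are relative signals, the background-corrected spot signal divided by the 75th percentile of the gene spots of the same array. Relative signals are compared between arrays for one probe only, since probes differ in brightness. A difference is the mean log2 signal in EP2KO minus that in WT, so that 1 is a 2-fold change, and the standard error (SE) given with it comes from limma over 4 arrays per genotype. There were 2 slides, each scanned on its own day, with EP2KO 1, EP2KO 2, WT 1 and WT 2 on slide 1 and EP2KO 3, EP2KO 4, WT 3 and WT 4 on slide 2. Slide and scan day thus coincide, while each slide holds both genotypes. An SE is from the fit without the slide unless said otherwise. That holds also where it stands beside a p-value of the slide-blocked fit, which has the slide as a block. EP2KO arrays always occupied positions 3 and 4 of a slide and WT arrays positions 1 and 2, and the effects of genotype and of position on the slide cannot be told apart.

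Between 25566 (WT 1) and 32161 (WT 3) of 39429 gene probes were well above background, and the 75th percentile ran from 979 (WT 2) to 1506 (WT 3) intensity units. Ptger2 checked the genotype labels: it gave 0.358, 0.288, 0.323 and 0.225 on EP2KO 1 to 4, against 0.981, 1.13, 0.90 and 1.01 on WT 1 to 4. The groups did not overlap, and the difference was -1.77 ± 0.17 (exact two-sided permutation p = 0.0286, the smallest that 70 arrangements allow; limma adjusted p = 0.0626 over all features). The sources do not say whether the probe lies in the disrupted part of the gene. The 6 macrophage markers summed here (Adgre1, Csf1r, Itgam, Mertk, Fcgr1 and Lyz2) were well above background on all 8 arrays, with a summed relative signal of 226 to 299.7 in EP2KO and 180.4 to 293 in WT. Cd68 had no named probe. WT 2 stood apart in markers of mesothelium, with a summed signal of 0.662, whereas the other WT arrays lay between 7.32 and 7.78. All 13 probes of the 10 genes were likewise well above background on all 8 arrays, so no gene of the list passed through one genotype alone. Large peritoneal macrophage genes were thus measured in both genotypes, although the labels give no site of origin.

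Promoter windows of some of the 10 genes are printed here with the motifs most tied to the programme. These are the GATA word bound by GATA factors and the GTTCA direct repeat known from retinoic acid receptor target sites. The windows are RefSeq promoter sequences of build GRCm38.p6, each holding the 250 bases before and the 50 bases from the gene start. Gata6 itself was left out of the search, so nothing is said of its promoter. Icam2, Itga6 and Prg4 had no window in that table. The other 6 of the 10 genes had 8 windows. Tgfb2 and Rarb are shown for their motif, Ltbp1 for its genotype difference, and Aspa and Selp because their patterns over the arrays were the closest pair among the 10 genes. Capitals mark a motif match, and each line runs 5′ to 3′ on the strand of the gene.
Tgfb2 (chr1:186705940-186706239, minus strand): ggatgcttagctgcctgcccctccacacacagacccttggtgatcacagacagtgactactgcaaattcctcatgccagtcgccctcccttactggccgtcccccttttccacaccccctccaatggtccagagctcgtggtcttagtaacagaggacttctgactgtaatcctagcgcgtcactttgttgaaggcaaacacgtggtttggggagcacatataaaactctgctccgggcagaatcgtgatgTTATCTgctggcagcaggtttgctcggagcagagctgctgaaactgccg
Ltbp1, first window (chr17:75005279-75005578, plus strand): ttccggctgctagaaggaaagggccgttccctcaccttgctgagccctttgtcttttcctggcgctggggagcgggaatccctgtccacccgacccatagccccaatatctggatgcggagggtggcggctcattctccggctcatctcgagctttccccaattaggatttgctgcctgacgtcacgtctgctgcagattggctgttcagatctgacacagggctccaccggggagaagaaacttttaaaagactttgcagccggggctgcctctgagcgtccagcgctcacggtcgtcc
Ltbp1, second window (chr17:75178531-75178830, plus strand): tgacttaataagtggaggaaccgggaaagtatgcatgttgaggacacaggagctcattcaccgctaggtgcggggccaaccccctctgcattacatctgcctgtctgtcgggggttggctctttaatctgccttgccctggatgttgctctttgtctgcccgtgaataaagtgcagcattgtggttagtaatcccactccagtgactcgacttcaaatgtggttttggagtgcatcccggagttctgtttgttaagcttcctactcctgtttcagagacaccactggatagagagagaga
Aspa (chr11:73324588-73324887, minus strand): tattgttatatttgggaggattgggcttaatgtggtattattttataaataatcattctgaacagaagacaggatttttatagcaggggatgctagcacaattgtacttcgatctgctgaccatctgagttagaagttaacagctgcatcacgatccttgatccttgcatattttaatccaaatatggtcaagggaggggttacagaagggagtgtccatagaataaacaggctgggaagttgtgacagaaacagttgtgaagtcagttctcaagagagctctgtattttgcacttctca
Selp (chr1:164115014-164115313, plus strand): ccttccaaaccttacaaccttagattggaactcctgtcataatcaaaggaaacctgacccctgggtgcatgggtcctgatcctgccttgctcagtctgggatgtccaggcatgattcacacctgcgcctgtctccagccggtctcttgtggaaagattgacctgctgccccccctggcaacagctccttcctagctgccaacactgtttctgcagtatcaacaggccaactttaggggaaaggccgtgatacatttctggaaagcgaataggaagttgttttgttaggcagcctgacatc
Rarb (chr14:16575427-16575726, minus strand): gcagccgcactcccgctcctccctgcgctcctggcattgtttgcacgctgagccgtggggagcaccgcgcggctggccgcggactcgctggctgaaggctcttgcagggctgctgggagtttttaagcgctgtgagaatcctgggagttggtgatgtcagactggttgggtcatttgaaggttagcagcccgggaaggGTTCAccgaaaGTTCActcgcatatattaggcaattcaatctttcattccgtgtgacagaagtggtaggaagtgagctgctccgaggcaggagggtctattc
The GATA search used 4 words on both strands, which are AGATAA, the same word with another first base, TGATAA, and the forms of both with another last base, AGATAG for one and TGATAG for the other. Of the 8 windows, 1 held such a word: in Tgfb2 it is written as its reverse complement and begins at base 2 of the gene, counting the first base as 1. Of 32851 windows of all genes, 29.8% held at least 1 of the 4 words. The second search took GTTCA, any 6 bases and GTTCA again, on both strands, and the spelled-out letters do not overlap the GATA words. The match in Rarb begins 52 bases before the gene start, and 25 of the 32851 windows (0.0761%) held one. A match describes letters in the window and is neither a shown binding site nor a cause of the values below, and the absence of a match says only that the letters are not in these 300 bases.

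Gata6, the transcription factor itself, ran in opposite directions on the slides. Its relative signal was 3.94, 4.93, 0.512 and 0.495 on EP2KO 1 to 4, against 2.40, 1.37, 1.09 and 1.39 on WT 1 to 4. The highest and the lowest pair of arrays were both EP2KO, the highest on slide 1 and the lowest on slide 2, with all 4 WT arrays in between. On slide 2 the EP2KO mean was 2.45-fold below the WT mean (log2 difference -1.29) with no overlap, and on slide 1 it was 2.43-fold above it (1.28) with no overlap. Over all 8 arrays the opposite differences left -0.01 ± 0.83. The spread over 4 arrays was accordingly wide in EP2KO, with an SD of 1.81 log2 units, against 0.48 in WT.

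In order of level, Gata6 was highest in EP2KO on slide 1, then in WT on slide 1, then in WT on slide 2, and lowest in EP2KO on slide 2. The neighbouring WT pairs overlapped, since WT 2 (1.37) lay below WT 4 (1.39), while the EP2KO pairs at either end stood apart from their WT neighbours. Leaving out 1 array at a time gave differences of -1.47 to -1.11 on slide 2 and 0.88 to 1.68 on slide 1. Their sign could not turn, since the genotypes did not overlap within either slide. The value of 0.88 was the one without WT 2, the array low in mesothelial markers.

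**Figure D1:**
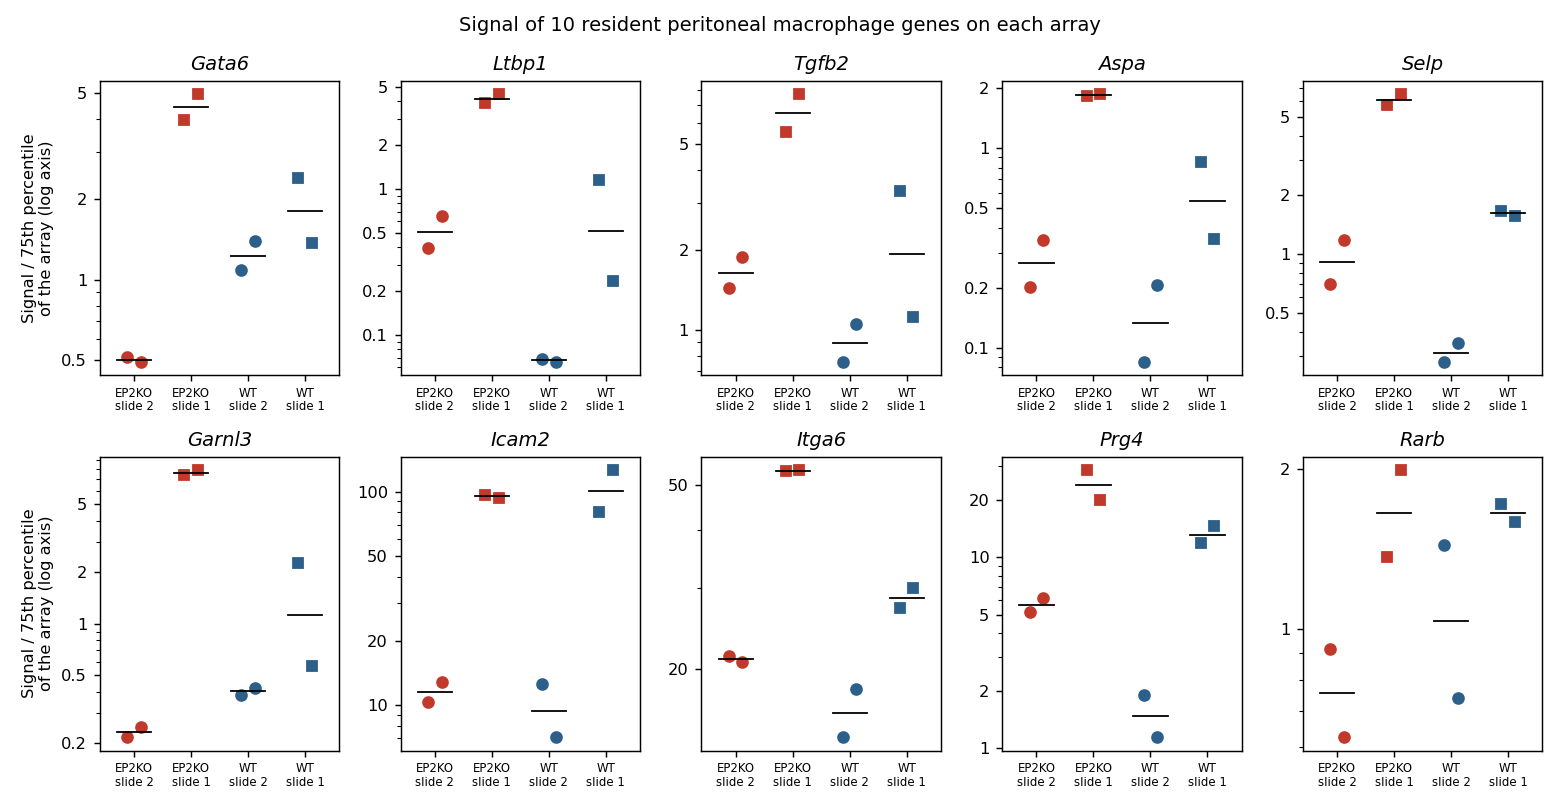
Relative signal (signal over the array's 75th percentile, log axis) of each of the 10 genes on every array, EP2KO in red and WT in blue, circles for slide 2 and squares for slide 1, with a bar at the geometric mean of each pair. Gata6 was lowest in EP2KO on slide 2 (0.495 and 0.512) and highest in EP2KO on slide 1 (3.94 and 4.93), and all 10 genes had a lower mean on slide 2 than on slide 1.

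Garnl3, a protein with a Rap/Ran-GTPase-activating domain, shared that pattern. It gave 7.36, 7.90, 0.217 and 0.248 on EP2KO 1 to 4, against 2.26, 0.567, 0.385 and 0.421 on WT 1 to 4. EP2KO arrays were above both WT arrays on slide 1 (2.75) and below both on slide 2 (-0.79), and the value over all arrays was 0.98 ± 1.38. On slide 1 it was 1.75 without WT 2 and 3.75 without WT 1. Gata6 and Garnl3 were the 2 genes of the 10 that were higher without overlap on slide 1 and lower without overlap on slide 2, a pattern that 5.32% of the 20740 features tested showed. Because the list was drawn up with these values known, nothing is read from that comparison.

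The TGF-beta genes of the list were higher in EP2KO on both slides. Ltbp1 encodes a latent TGF-beta binding protein, which tethers the inactive cytokine to the extracellular matrix, and Tgfb2 encodes one of the TGF-beta ligands. Ltbp1 gave 3.87, 4.44, 0.394 and 0.658 on EP2KO 1 to 4, against 1.15, 0.233, 0.0685 and 0.0658 on WT 1 to 4. Within each slide both EP2KO arrays exceeded both WT arrays, by 7.58-fold on slide 2 and 8.01-fold on slide 1, and across slides the genotypes overlapped because EP2KO 3 and EP2KO 4 lay below WT 1. With normexp background correction, the difference was 1.39 in place of 2.92 on slide 2 and 2.71 in place of 3.00 on slide 1. On slide 1 it was 1.85 without WT 2 and 4.15 without WT 1. Over all arrays the difference was 2.96 ± 1.16, with an SE of 0.46 when the slide was a block in the fit.

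Tgfb2 was measured by 2 probes, and the brighter one gave 5.53, 7.67, 1.44 and 1.88 on EP2KO 1 to 4, against 3.33, 1.12, 0.762 and 1.06 on WT 1 to 4. It was 1.83-fold higher in EP2KO on slide 2 and 3.37-fold higher on slide 1, without overlap on either, and 1.31 ± 0.66 over all arrays. The other probe gave 0.63 on slide 2 and 1.70 on slide 1, again without overlap. For both genes WT 1 lay far above WT 2, by 2.31 log2 units for Ltbp1 and 1.57 for Tgfb2, while the EP2KO arrays of that slide were 0.20 and 0.47 apart. The Tgfb2 difference on slide 1 was accordingly 0.97 without WT 2 and 2.54 without WT 1.

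Aspa encodes aspartoacylase, the enzyme that splits N-acetylaspartate. Its signal was 1.83, 1.86, 0.203 and 0.349 on EP2KO 1 to 4, against 0.852, 0.352, 0.0854 and 0.206 on WT 1 to 4. EP2KO was 3.38-fold higher on slide 1 without overlap and 2.01-fold higher on slide 2, where EP2KO 3 (0.203) lay just below WT 4 (0.206). The slide 2 difference of 1.00 rested on single arrays, at 0.37 without WT 3 and 1.64 without WT 4, and was 0.40 with normexp. That of slide 1 was 1.12 without WT 2 and 2.39 without WT 1. Prg4 encodes proteoglycan 4, or lubricin, a secreted boundary lubricant. Its brighter probe gave 28.5, 19.9, 5.19 and 6.09 on EP2KO 1 to 4, against 11.8, 14.5, 1.89 and 1.14 on WT 1 to 4. Both EP2KO arrays exceeded both WT arrays on each slide, by 3.82-fold on slide 2 and 1.82-fold on slide 1. The second Prg4 probe, much dimmer, gave 0.83 on slide 1 but 0.05 with overlap on slide 2, so the Prg4 difference on slide 2 rests on 1 of its 2 probes.

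Of the adhesion genes, Selp was set apart by genotype on both slides and Icam2 on neither. Selp encodes P-selectin, a leukocyte-rolling receptor best known from platelets and endothelium and also present in resident peritoneal macrophages of the mouse. Its probe, averaged over 10 spots, gave 5.70, 6.49, 0.699 and 1.17 on EP2KO 1 to 4, against 1.66, 1.55, 0.281 and 0.348 on WT 1 to 4. EP2KO was 2.90-fold higher on slide 2 and 3.79-fold higher on slide 1, without overlap within either slide. The difference of 1.73 had an SE of 0.93 and of 0.19 with the slide as a block.

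Icam2, whose product binds the leukocyte integrin LFA-1 and is a standard surface marker of large peritoneal macrophages, gave 96.4, 93.8, 10.3 and 12.9 on EP2KO 1 to 4. On WT 1 to 4 it gave 80.5, 126, 12.5 and 7.06. The genotypes overlapped on both slides, with differences of 0.29 on slide 2 and -0.08 on slide 1, and the sign on slide 1 turned to 0.18 under quantile normalization. The slides, in contrast, did not overlap at all, with every slide 1 array above 80 and every slide 2 array below 13. Itga6, the alpha 6 integrin subunit of laminin receptors, gave 53.5, 53.8, 21.3 and 20.7 on EP2KO 1 to 4, against 27.1, 29.9, 14.2 and 18.1 on WT 1 to 4. EP2KO was higher without overlap on both slides, by 1.31-fold on slide 2 and 1.88-fold on slide 1. The slide 2 difference of 0.39 was 0.22 without WT 3 and 0.66 when scaled to the median.

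Platelet and endothelial RNA could carry the same adhesion genes, so markers of both were set beside them. The summed relative signal of the 3 platelet markers with a usable probe (Itga2b, Pf4 and Gp1ba) was 51.3 to 72.7 in EP2KO and 46.4 to 63.6 in WT. Pf4 made up most of that sum, with differences of 0.14 on slide 2 and 0.39 on slide 1. Itga2b gave -0.36 and 0.54. On slide 1 all 3 platelet markers were higher in EP2KO without overlap (15.2% of all features), and on slide 2 it was 1 of them (29.1%). The summed signal of the 4 endothelial markers (Cdh5, Kdr, Pecam1 and Vwf) was 2.81 to 16.7 in EP2KO and 2.53 to 11.9 in WT. Tie1 was well above background on 0 arrays and Gp9 on 3. The endothelial sum was higher on slide 2 (16.7 and 16.1 in EP2KO, 8.40 and 11.9 in WT) than on slide 1 (2.81 and 2.90 in EP2KO, 2.73 and 2.53 in WT). Vwf made up most of it on slide 2, with 13.4 and 12.8 in EP2KO and 5.76 and 9.22 in WT. Cdh5 (0.75, limma adjusted p = 0.042), Kdr (0.43, limma adjusted p = 0.013) and Vwf (4.49, limma adjusted p = 2.9e-05) were each higher on slide 2 than on slide 1. Of all features, 24.7% passed as higher there. Pecam1 alone of the 4 was lower on slide 2 (-0.68, limma adjusted p = 0.0082), the direction that Selp, Icam2 and Itga6 had. The part of endothelial cells in the values of these genes was not tested. Of the platelet markers, Gp1ba was well above background on 4 EP2KO arrays and on 2 WT arrays, those of slide 1, where its difference was 1.58. It was kept through the EP2KO arrays alone, and the part of platelets in the Selp values was not tested.

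Rarb, the retinoic acid receptor beta and itself a textbook target of retinoic acid, was not set apart by genotype. Its brighter probe gave 1.37, 1.99, 0.917 and 0.625 on EP2KO 1 to 4, against 1.72, 1.59, 1.44 and 0.742 on WT 1 to 4. The genotypes overlapped on both slides, with differences of -0.45 on slide 2 and -0.00 on slide 1. The second probe gave -0.22 and -0.03 with overlap on both. The slide 1 value of the first probe turned to 0.05 under quantile normalization and to 0.01 under scaling to the median.

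**Figure D2:**
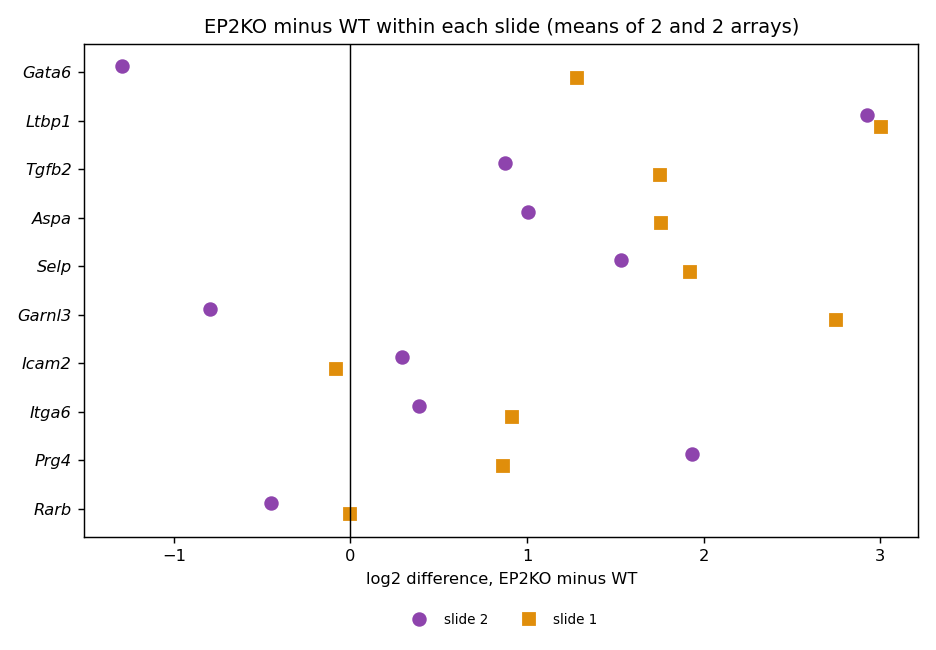
Log2 difference, EP2KO minus WT, of each of the 10 genes within slide 2 (circles) and within slide 1 (squares), each from 2 arrays per genotype. Ltbp1 lay at 2.92 on slide 2 (1.39 with normexp) and 3.00 on slide 1 (2.71), and Gata6 (-1.29 and 1.28) and Garnl3 (-0.79 and 2.75) lay on opposite sides of 0.

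Counted over the list, 8 of the 10 genes had a difference above 0 over all arrays, as had 42.3% of all features, and the median was 1.15, against -0.03 for all features. On slide 2, 7 of the 10 were above 0 (56.2% of all features) with a median of 0.63 against 0.04. On slide 1, 8 of the 10 were above 0 (36% of all features) with a median of 1.52 against -0.10. At least 2-fold higher in EP2KO were 4 on slide 2 (background 1.02%) and 6 on slide 1 (background 3.95%). On slide 2, 5 genes were higher in EP2KO without overlap (29.1% of all features) and 2 lower (21.6%), and on slide 1, 8 were higher (15.2%) and 0 lower (34.7%). Ltbp1, Tgfb2, Selp, Itga6 and Prg4 were higher without overlap on both slides, as were 2.82% of all features. These shares are given beside the counts only, since the genes were chosen with the same values known.

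In limma fits over all 20740 features, at an adjusted p of 0.05, 2 features passed between genotypes (0.00964%), and 410 features (1.98%) had an unadjusted p under 0.05. With the slide as a block 4 features passed (0.0193%), while 1531 features (7.38%) had an unadjusted p under 0.05. With the replicate number as a block 0 features passed, and 1139 (5.49%) had an unadjusted p under 0.05. On slide 2 alone, with 2 arrays per genotype, 223 features passed (1.08%), 11 of them higher in EP2KO (0.053%) and 212 lower (1.02%). On slide 1 alone 0 features passed, and 2541 (12.3%) had an unadjusted p under 0.05. The interaction of genotype and slide was passed by 3 features (0.0145%), 1 of them higher (0.00482%) and 2 lower (0.00964%), with 4414 features (21.3%) at an unadjusted p under 0.05. These counts describe the whole table, and no call is given for the 10 genes, which were selected on the same values. Single arrays decided the interaction count, which was 1426 without WT 1, 79 without WT 4, 9 without EP2KO 3 and 0 without EP2KO 1, EP2KO 2, EP2KO 4 or WT 3.

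All 10 genes were lower on slide 2 than on slide 1, and 9 of them at least 2-fold, as were 10.1% of all features. The median was -2.49 (slide 2 minus slide 1), against 0.05 for all features. As background, 18.4% of all features passed as lower on slide 2 in the limma fit with genotype, and 43.1% passed in either direction. Aspa, Selp, Garnl3, Icam2, Itga6 and Prg4 did not overlap between the slides on any array, a pattern found in 18.3% of all features.

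The drop between slides was of unequal size in the genotypes for some of the 10 genes. For Gata6 slide 1 exceeded slide 2 by 8.76-fold in EP2KO and by 1.47-fold in WT, and for Garnl3 by 32.8-fold in EP2KO and 2.81-fold in WT. For Ltbp1 the folds were 8.14 in EP2KO and 7.71 in WT, a closeness that normexp background correction did not keep, since its genotype differences then were 1.39 on slide 2 and 2.71 on slide 1. For Icam2 they were 8.26 in EP2KO and 10.74 in WT. Prg4 ran the other way, with 4.24-fold in EP2KO and 8.91-fold in WT. Since these values also entered the choice of genes, no test of the difference between the genotypes is given for them.

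**Figure D3:**
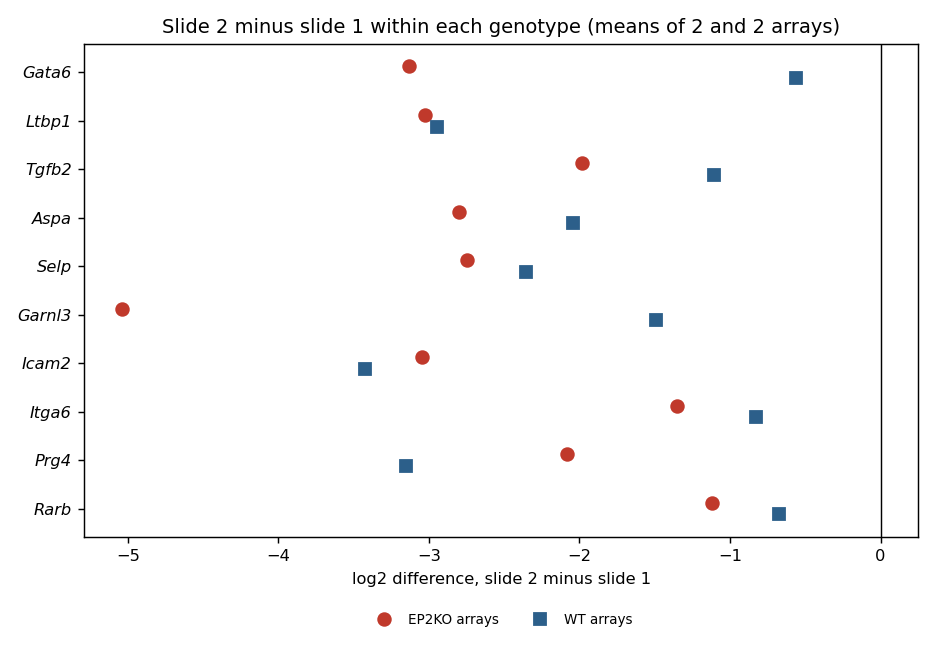
Log2 difference, slide 2 minus slide 1, of each of the 10 genes within EP2KO (circles) and within WT (squares). All 20 points lie below 0, and those of Gata6 (-3.13 in EP2KO and -0.56 in WT) and Garnl3 (-5.04 and -1.49) are the farthest apart.

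Arrays of the same genotype and slide differed most in WT on slide 1. There 4 of the 10 genes were at least 2-fold apart between WT 1 and WT 2 (9.97% of all features), with Ltbp1 the widest at 2.31 log2 units. On slide 2, 0 genes were that far apart in EP2KO (3.54% of all features) and 1 in WT, Aspa at 1.27 (4.63%). In EP2KO on slide 1 the count was 0 (1.8%), and Itga6 differed there by 0.01 log2 units. In each of the 5 genes that differed most between WT 1 and WT 2 (Ltbp1, Garnl3, Tgfb2, Aspa and Gata6), WT 1 was the higher.

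Likeness of pattern was measured as the root mean square difference of log2 values over the 8 arrays, after each gene was centred on its own mean. Aspa and Selp were the closest pair of the 10 genes (0.44), followed by Tgfb2 with Aspa (0.51) and Selp with Prg4 (0.53), and Ltbp1 and Rarb were the farthest apart (2.02). Itga6 was nearest to Gata6 among the list at 0.76, which placed it 768th of 14472 named genes, and Ltbp1 was farthest at 1.76. The 6 named genes closest to Gata6 were Robo1 (0.264), Fzd6 (0.317), Fam174b (0.319), Neto2 (0.323), Krt7 (0.326) and Plekhh1 (0.327). All 6 were dim, with relative signals from 0.006 (Fzd6 on EP2KO 3) to 0.286 (Krt7 on EP2KO 2). Fzd6 was well above background on 6 arrays and so was kept through 1 genotype alone. Robo1 is a guidance receptor for Slit ligands, Fzd6 a Wnt receptor and Krt7 a keratin of simple epithelia and mesothelium. All 6 were higher in EP2KO on slide 1 and lower on slide 2, as Gata6 was, which their choice largely fixes. Leaving out 1 array at a time left between 0 and 5 of these 6 names among the closest 6, so the membership depends on single arrays.

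Markers of mesothelium, the cell sheet that lines the peritoneum, differed between genotypes in the same directions as Gata6 within each slide. The summed relative signal of Msln, Upk3b, Upk1b, Lrrn4, Krt19 and Wt1 was 4.10, 8.84, 1.44 and 0.658 on EP2KO 1 to 4, against 7.44, 0.662, 7.78 and 7.32 on WT 1 to 4. All 6 markers were well above background on all 8 arrays. On slide 2 all 6 were lower in EP2KO without overlap, as were 21.6% of all features, with a median of -3.39. Of the 6, Lrrn4, Upk3b, Upk1b and Msln passed as lower on that slide alone (1.02% of all features), with limma adjusted p-values of 0.043 to 0.046. On slide 1 all 6 had a mean difference above 0 (median 1.59), as had 36% of all features. The genotypes overlapped there, because WT 2 lay far below WT 1.

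Mesothelial markers and Gata6 did not follow each other on every array. WT 2, at 0.662, was as low in the mesothelial sum as EP2KO 4 at 0.658, and Gata6 was 1.37 on WT 2 and 0.495 on EP2KO 4. Without WT 2, the mesothelial sums of EP2KO 1 and EP2KO 2 (4.10 and 8.84) lay on either side of WT 1 (7.44), while Gata6 was higher on both (3.94 and 4.93) than on WT 1 (2.40). The 6 mesothelial markers were between 1.13 (Krt19) and 1.53 (Upk3b) from Gata6 in pattern. The other 9 genes of the list were between 0.76 (Itga6) and 1.76 (Ltbp1) from it. Krt7, a keratin also of mesothelium, was among the 6 genes nearest to Gata6 (0.326). The 5 fibroblast markers had differences of the same signs as the mesothelial ones, with a median of -4.01 on slide 2 and 0.72 on slide 1 and a summed signal of 2.26 to 44.2 in EP2KO and 11.97 to 93.1 in WT. The part of either cell type in the slide 2 values of Gata6 was not tested.

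**Figure D4:**
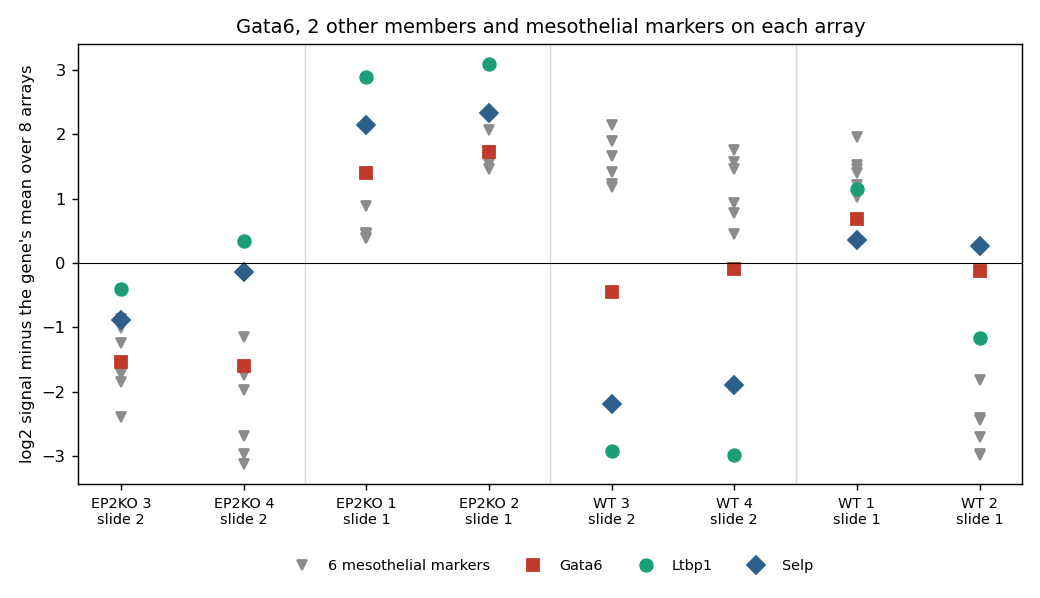
Log2 signal of Gata6, Ltbp1, Selp and 6 mesothelial markers on each array, minus the gene's mean over the 8 arrays, EP2KO arrays on the left and WT arrays on the right. The mesothelial markers were low on EP2KO 3, EP2KO 4 and WT 2, and Gata6 was low on EP2KO 3 and EP2KO 4 (-1.54 and -1.59) but near its mean on WT 2 (-0.12).

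Of 25 other genes of resident peritoneal macrophages, 24 had a usable probe, and all of these were well above background on all 8 arrays. Their median difference was 0.53, with 19 above 0 (42.3% of all features). It was 0.54 on slide 2, with 18 above 0 (56.2% of all features), and 0.90 on slide 1, with 20 above 0 (36%). Of the 24, 14 were above 0 on both slides. With the slide as a block 0 of the 24 passed (background 0.0193%), and 14 had an unadjusted p under 0.05 (background 7.38%). Without it 0 passed (background 0.00964%), and 2 had an unadjusted p under 0.05 (background 1.98%). The list was written with earlier results on these arrays known and is not independent evidence of a direction.

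Thbs1, the matrix glycoprotein thrombospondin-1, came nearest to the threshold in the slide-blocked fit. It gave 22.8, 24.9, 8.56 and 8.54 on EP2KO 1 to 4, against 9.77, 9.62, 4.34 and 3.03 on WT 1 to 4. Its differences were 1.24 on slide 2 and 1.30 on slide 1, and the slide-blocked limma fit gave an adjusted p of 0.0611. The next in order were Naip1, a sensor subunit of the inflammasome, with 0.88 ± 0.42 (slide-blocked limma adjusted p = 0.198), and Cd93, a lectin-like surface receptor, with 0.75 ± 0.68 (0.233). In the slide-blocked fit their SEs were 0.17 and 0.15. Cd93 differed from the 10 genes in being higher on slide 2, at 57.7 to 83.6, than on slide 1, at 11.9 to 28.9.

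Further genes of that list are named after their values were seen. Vsig4, a complement receptor of resident macrophages, gave 17.2, 20.3, 14.1 and 21.6 on EP2KO 1 to 4, against 8.20, 2.17, 6.66 and 6.21 on WT 1 to 4. It was the only one of the 24 with no overlap over all 8 arrays, as 0.424% of all features were in that direction, and its difference was 1.79 ± 0.41 (slide-blocked limma adjusted p = 0.26). Timd4, the phosphatidylserine receptor TIM-4 that marks long-lived resident macrophages, was 1.68 on slide 2 and 1.56 on slide 1. On slide 2 alone Serpinb2, a plasminogen activator inhibitor, passed as higher in EP2KO (1.61, limma adjusted p = 0.043; 0.053% of all features), and Cxcl13, a B cell chemokine, passed as lower (-3.58; 1.02% of all features; limma adjusted p = 0.046). Cxcl13 shared the directions of Gata6 within each slide, at 17.5, 17.3, 0.642 and 0.913 on EP2KO 1 to 4, against 8.49, 6.09, 6.67 and 12.6 on WT 1 to 4. Unlike for Gata6, the highest WT array was on slide 2. F5, also on that list, had the same directions without overlap on either slide (-0.45 on slide 2 and 1.29 on slide 1).

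Genes listed for small peritoneal macrophages and monocytes, not all of them particular to those cells, lay mostly on the other side of 0. Of 17 written, 16 had a usable probe, and 2 were above 0 (42.3% of all features). The median was -0.39 (-0.03 for all features), with -0.17 on slide 2 and -0.63 on slide 1 (0.04 and -0.10 for all features). Above 0 were 5 on slide 2 (56.2% of all features) and 1 on slide 1 (36%). With the slide as a block 0 passed (background 0.0193%) and 4 had an unadjusted p under 0.05 (background 7.38%). Folr2, a folate receptor of tissue macrophages, gave 15.7, 15.4, 11.1 and 11.02 on EP2KO 1 to 4, against 23.4, 35.7, 26.1 and 18.5 on WT 1 to 4. It was lower in EP2KO with no overlap over all 8 arrays, as 0.984% of all features were, at -0.95 ± 0.24 (slide-blocked limma adjusted p = 0.174). Cx3cr1, the fractalkine receptor, followed with -1.25 ± 0.75 (0.236) and Fcrls, an Fc receptor-like molecule, with -0.66 ± 0.39 (0.525).

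**Figure D5:**
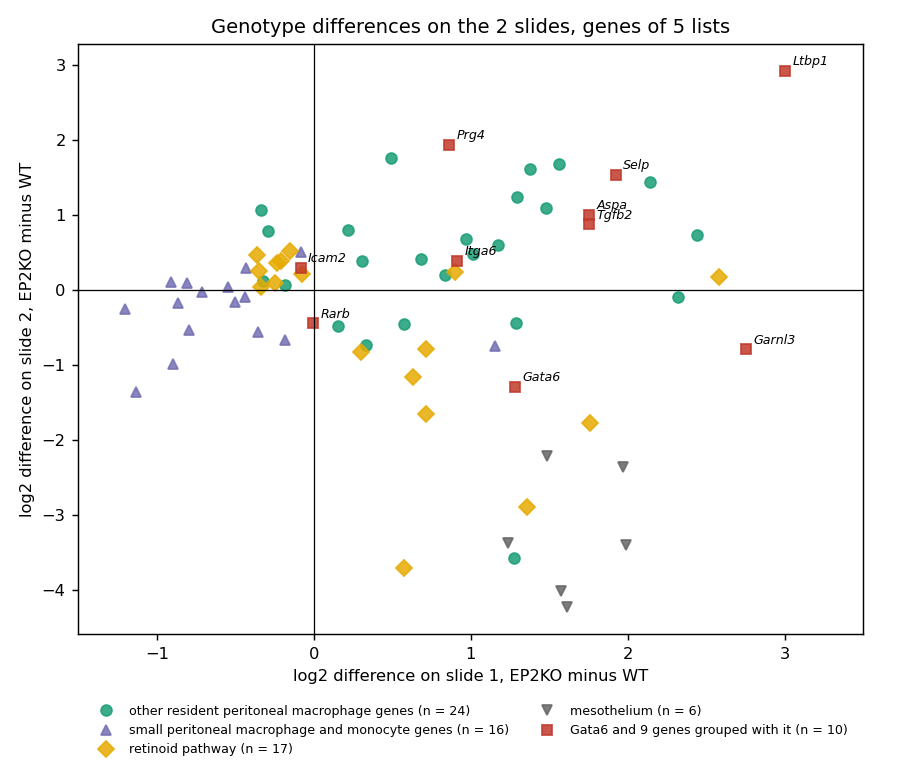
Log2 difference, EP2KO minus WT, on slide 1 (horizontal axis) and slide 2 (vertical axis) for genes of 5 lists. Other resident peritoneal macrophage genes lay mostly above 0 on both axes (14 of 24), small peritoneal macrophage and monocyte genes mostly below 0 on slide 1 (15 of 16), and the 6 mesothelial markers above 0 on slide 1 and below 0 on slide 2. Of all features, 36% lay above 0 on slide 1 and 56.2% on slide 2.

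The retinoid pathway, which supplies the signal that induces Gata6, was measured by 17 of 19 listed genes. Their median difference was -0.04 (0.09 on slide 2 and 0.30 on slide 1). With the slide as a block 0 passed (background 0.0193%) and 0 had an unadjusted p under 0.05 (background 7.38%). That fit averages the slides and cannot show opposite differences. On slide 2, 6 of the 17 were higher without overlap (29.1% of all features) and 7 lower (21.6%). Higher without overlap on slide 1 and lower without overlap on slide 2 were 3 of them (5.32% of all features). Aldh1a1, an enzyme that makes retinoic acid, passed on slide 2 alone as lower in EP2KO, like 1.02% of all features (-3.71, limma adjusted p = 0.044). It gave 0.711, 1.52, 0.231 and 0.117 on EP2KO 1 to 4, against 1.15, 0.423, 2.29 and 2.03 on WT 1 to 4, and so was low on EP2KO 3, EP2KO 4 and WT 2, the arrays low in mesothelial markers. Dhrs9, a retinol dehydrogenase, gave 0.57 ± 1.41 (slide-blocked limma adjusted p = 0.788), and Cyp26a1, which breaks retinoic acid down, gave 1.38 ± 1.26 (0.877). Aldh1a2, the retinoic acid-making enzyme best known from mesothelium and fibroblasts, is named after its values were seen and gave -1.17 on slide 2 and 0.63 on slide 1, in the directions of Gata6.

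Other TGF-beta pathway genes had a median over all arrays near that of all features, with wide differences within slides. Of 22 listed genes 20 were measured, 5 were above 0 (42.3% of all features) and the median was -0.06, against -0.03 for all features. Single genes ran from -3.22 to 0.51 on slide 2 and from -0.655 to 2.00 on slide 1. Without overlap, 5 were higher (29.1% of all features) and 7 lower (21.6%) on slide 2. On slide 1 it was 1 higher (15.2%) and 8 lower (34.7%). With the slide as a block 0 passed (background 0.0193%) and 3 had an unadjusted p under 0.05 (background 7.38%). Smad7, the feedback inhibitor of the pathway, gave -0.46 ± 0.19 (slide-blocked limma adjusted p = 0.471), Smad3, a signal transducer, -0.38 ± 0.67 (0.511), and Tgfbr3, a co-receptor, -1.17 ± 0.62 (0.667). Within the GATA family and its cofactors, 6 of 7 listed genes were measured, with a median of -0.13. Gata2, a factor of mast cells and blood progenitors, gave 1.35 ± 0.68 (slide-blocked limma adjusted p = 0.236) and Gata3, a T cell factor, -0.83 ± 0.68 (0.215). Gata5 gave 0.21 ± 0.21 (0.811), and Gata4 was well above background on 6 arrays and not on all of either genotype.

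Of 16 genes typical of macrophages of other tissues, 14 were measured, with a median of -0.06. The Kupffer cell gene Clec4f was well above background on 1 array and the microglial factor Sall1 on 0. Tmem119 gave -1.35 ± 0.97 (slide-blocked limma adjusted p = 0.621), P2ry12 -0.58 ± 0.24 (0.667) and Lyve1 -0.57 ± 0.42 (0.893). With the slide as a block 0 of the 14 passed (background 0.0193%), and 2 had an unadjusted p under 0.05 (background 7.38%). The 6 macrophage markers had a median of 0.03, and Adgre1, which encodes F4/80, gave 0.32 ± 0.14 with no overlap over all 8 arrays, higher in EP2KO like 0.424% of all features (slide-blocked limma adjusted p = 0.623).

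Markers of the other cell types that a peritoneal or tissue preparation can hold also differed between arrays. Mast cell markers (Cpa3, Mcpt4, Cma1, Tpsb2 and Kit) were above 0 for all 5 genes on both slides, with a median of 2.06 and a summed signal of 7.47 to 28.2 in EP2KO and 1.01 to 17.1 in WT. On slide 2 alone 3 of them passed as higher in EP2KO (0.053% of all features), among them Mcpt4 (3.49, limma adjusted p = 0.042). T cell markers were below 0 for all 4 genes on both slides, with a median of -0.95 and a summed signal of 0.758 to 2.80 in EP2KO and 1.12 to 7.56 in WT. Of all features, 56.2% were above 0 on slide 2 and 36% on slide 1. B cell markers summed to 2.96 to 50.02 in EP2KO and 3.89 to 43.7 in WT, with the low values on slide 2 in both genotypes. Neutrophil markers summed to 2.57 to 45.9 in EP2KO and 3.98 to 51.3 in WT, and monocyte markers to 17.4 to 23.3 in EP2KO and 13.6 to 33.2 in WT. The mast cell markers differed in the directions of Ltbp1, Tgfb2, Selp and Prg4, higher in EP2KO on both slides and lower on slide 2 than on slide 1. The part of mast cells, and that of the other cell types, in the values of the 10 genes was not tested.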

How the data were processed

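RNA of 8 macrophage samples was measured on one-colour Agilent arrays; per the labels' protocols 0.5 µg RNA was labelled with Cy3. The deposited files hold each spot's intensity, background-corrected but not scaled between arrays, extracted with Feature Extraction 10.7.1.1 per the file headers (version 9.1 per the submitters' processing notes). The authors' series table held the same intensity values. Control spots (1377 of 44397) were dropped, flagged spots (125 to 201 per array) set missing, and 0 were saturated. The log2 signal minus each array's 75th percentile was averaged per probe. Probes were named through RefSeq transcripts (27502 of 39429); a probe was kept when well above background on all arrays of a genotype, and the brightest stood for its gene (20740 features). Probes with 10 spots varied within an array by a median SD of 0.06 to 0.092 on the log2 scale, and precision is set mainly by the number of arrays.

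Genotypes, slides and their interaction were fitted with limma 3.58.1 in R 4.3.3 with Benjamini-Hochberg adjustment, two-sided; the fits were tested on simulated data. The 10 genes, the 16 other lists and the alternatives were chosen with earlier results of these data known. Named genes were the 10, Ptger2, the 6 nearest to Gata6 in pattern and, per list, the 3 with the smallest slide-blocked p, besides markers. Arrays of equal replicate number deviated together (r across genes 0.736, 0.121, 0.553 and 0.428 for numbers 1 to 4, every r above 0.1), so the number also served as a block; each such pair shares a slide. Alternatives covered background, scaling, filters, blocks and each array left out. The normexp alternative (offset 50) used the median spot signal, the files holding no mean spot signal. One macrophage marker of the original list is not reported here.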

Additional observations from a re-analysis of the deposited data

Results flagged for a closer look

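The 3 mesothelial markers Lrrn4, Wt1 and Upk3b were far lower on WT 2 than on the other WT arrays. Msln, Upk1b and Krt19 were not among the genes examined for such gaps, but were low on WT 2 too. Their log2 signals minus the gene's mean were -2.98, -2.97 and -2.41 on WT 2, against 0.44 to 1.95 on the other WT arrays. The gap of WT 2 to the next array was 0.887 of the range over 4 arrays for Lrrn4, 0.885 for Wt1 and 0.86 for Upk3b, against a critical value of 0.829. Of 130 groups of 4 arrays examined (65 genes in both genotypes) these 3 exceeded it, and chance alone gives about 6.5. No group of the 10 resident macrophage genes did.

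For Gata6 and Garnl3 every EP2KO array was above every WT array on slide 1 and below every WT array on slide 2. The difference on slide 2 minus that on slide 1 was -2.57 for Gata6 and -3.55 for Garnl3. It was -2.09 for Robo1, -2.92 for Fzd6, -1.4 for Fam174b, -1.85 for Neto2, -2.62 for Krt7 and -1.58 for Plekhh1. These 6 were chosen for their likeness to Gata6 and are dim, and Fzd6 was well above background on only 6 arrays. No test of these differences is given, since the values that make them chose the genes.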

How the results depend on the processing

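The count of features differing between genotypes (2) became 4 with the slide as a block or as a random block, 0 on slide 1 alone, 223 on slide 2 alone, and 0 to 4 with each array left out. With the replicate block it was 0 (1139 features at an unadjusted p under 0.05, 5.49%); the Ptger2 adjusted p was then 0.216. The slide count (8948) was 3537 with normexp and 6516 to 9748 with an array left out. The interaction count (3) was 0 with normexp, 5 scaled to the median, 1 with no filter, 14 for probes well above background on all 8 arrays, and 0 to 1426 with an array left out; it was 1426 without WT 1, 79 without WT 4 and 9 without EP2KO 3. Ptger2 passed under quantile normalization (-1.73, limma adjusted p = 0.0466) and with the slide as a block (-1.77, limma adjusted p = 0.0319), and ran from -1.86 to -1.64 with an array left out. Of the 6 genes nearest to Gata6, 2 stayed nearest under quantile normalization and 0 to 5 with an array left out. The cause of these changes was not tested, apart from the fewer arrays or features that some alternatives use. The median of the 10 genes (1.15) ran from 0.63 to 1.75, and from 0.67 (without EP2KO 2) to 1.75 (without EP2KO 3) with an array left out. That of the 24 other resident genes (0.53) ran from 0.44 to 0.90. All 240 values of single genes under alternatives lay within 1 SD of the reported value. That SD was taken within genotypes over both slides and so holds the slide differences (1.33 for Gata6 and 2.22 for Garnl3). Even the opposite Gata6 values of slide 2 alone (-1.29) and slide 1 alone (1.28) lay within it. The count of 240 is therefore no measure of stability. Gata6 over all arrays ran from -0.58 without EP2KO 2 to 0.52 without EP2KO 4, and Garnl3 from 0.12 without EP2KO 2 to 1.85 without EP2KO 3. The median of all features moved from -0.03 to -0.12 with normexp and to 0.11 when scaled to the median. With 2 arrays per genotype and slide, values within a slide are imprecise, and dim probes are limited by their signal over background.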
